A study of Arabidopsis thaliana with 3 samples.

Results

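Pectinesterases and a pectinesterase inhibitor were followed across leaves of Arabidopsis thaliana that overexpress WIN1. The set held 8 genes: 7 pectinesterase genes (AT1G05310, AT2G36710, AT2G47550, AT3G47400, AT4G03930, AT2G43050, which carries the symbol ATPMEPCRD, and AT4G02330, which carries the symbol ATPMEPCRB) and the pectin methylesterase inhibitor gene AT3G47380. They were found by the gene that the array annotation pairs with each probe set, and they made up 8 of the 3592 genes that could be named on the array. AT1G05310 and AT3G47380 were chosen by measured values, their ratios to the control, which went opposite ways in both WIN1 lines. Those ratios are therefore given as a description, with no test. The remaining 6 were named as pectinesterases by the annotation, but the list was drawn up with these data in view: 9 further pectinesterase genes that were matched to a probe set and were too dim to be kept are not in it.

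The study measured RNA from leaves on 3 one-colour Affymetrix arrays. The WIN1 group was line 13 and line 22, both 35S:WIN1 plants, with 1 array for each line made from the leaves of several T2 plants. The control group was 1 array of leaves pooled from several plants that carried an empty binary vector. The viral 35S promoter drives expression in most plant tissues, so WIN1 was not restricted to the cells where it is normally active. The labels give no plant age. Errors are given as the SD of the 2 lines, and the control has no replicate.

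Pectin is a galacturonic acid polymer of the plant cell wall that is laid down with methyl esters attached. Pectinesterases, also called pectin methylesterases, remove those esters in the wall, which lets calcium cross-link the chains or opens them to pectate lyases and polygalacturonases. Pectinesterase inhibitors are small secreted proteins that bind the enzymes and block them. WIN1 is an AP2/ERF transcription factor best known for raising the wax and cutin of the leaf epidermis.

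Each array reports 1 intensity for a probe set, which is a group of short probes against a transcript. Before scaling, the array medians were 70.2 (line 13), 35.2 (line 22) and 84.1 (control), and all ratios come from arrays brought to the same trimmed mean. A pseudocount of 18.6 was added before log2 was taken, so all ratios are on the log2(value + pseudocount) scale and understate differences of dim probe sets. Of 8247 probe sets, 5773 lay above the intensity filter and were kept. The ratios of line 22 to the control were wider than those of line 13, with an SD of 0.936 against 0.402 over kept probe sets. No probe set was paired with WIN1 itself (AT1G15360), so the overexpressed transcript was not analysed here. The 5 matched photosynthesis markers of leaf were bright on all arrays, with no scaled intensity under 522.8. Their summed scaled intensity came to 12599 on the line 13 array, 20295 on the line 22 array and 12953 on the control array. Line 22 stood highest in this sum after scaling, whereas the deposited values summed to 12837 (line 13), 14459 (line 22) and 16433 (control), so that the control was then highest. The part of these markers in the values that follow was not tested. Of the pollen markers, 3 of 10 were matched, with sums of 251.3 on the line 13 array, 131.5 on the line 22 array and 266.3 on the control array. The pollen pectate lyase AT59 was below 0 on each array, ACT12 was dim, and TUA1, a tubulin gene, was the only one kept. No listed flower, root or seed marker was matched.

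The 8 genes were read by 11 probe sets, of which 10 were kept, and every gene had at least 1 kept probe set. By a rule of size, a log2 ratio of 1 or more, or of -1 or less, in each of the lines, 1 of the 10 was higher in the WIN1 lines and 1 was lower, and 8 met neither. The same rule was met by 0.866% of all kept probe sets for higher and 0.554% for lower. Both member probe sets belonged to the genes that were noticed for these ratios, so nothing is read from the comparison of these shares. The share of higher among the probe sets that met the rule was 61.0% over the whole array, but 17.1% on the deposited values without scaling. Without scaling, the median ratio over kept probe sets shifted to -0.27 (line 13) and -0.78 (line 22) on the log2 scale.

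**Figure D1:**
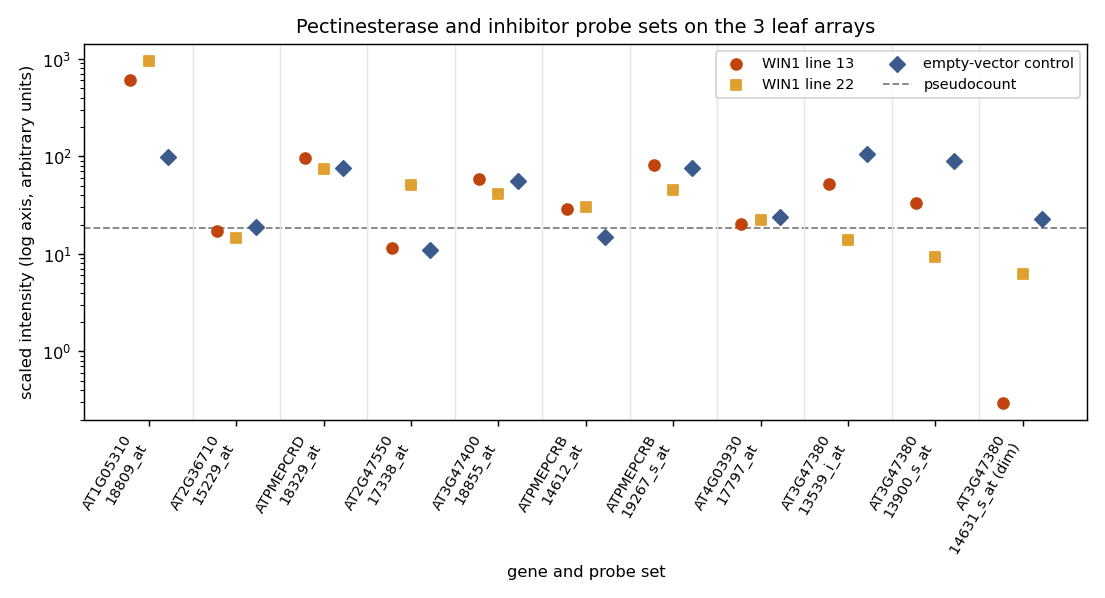
Scaled intensity (log axis, arbitrary units) of the 11 probe sets of the 8 genes in WIN1 line 13 (circles), WIN1 line 22 (squares) and the empty-vector control (diamonds), with 1 array per point and no error bars. Both line points of AT1G05310 lie above its control point, those of AT3G47380 lie below theirs in each of its 3 probe sets, and the dashed line marks the pseudocount of 18.6. Levels of different probe sets cannot be compared with each other.

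AT1G05310, a pectinesterase gene read by the single probe set 18809_at, was the member that stood furthest above the control. Its scaled intensity was 608.9 on the line 13 array and 948 on the line 22 array, against 99.6 on the control array. All of these values lay well above the pseudocount. On the deposited values, before scaling, it had 620.4 and 675.4 in lines 13 and 22, against 126.4 in the control. The log2 ratio to the control was 2.41 in line 13 and 3.03 in line 22, a mean of 2.72 ± 0.441 (SD, n = 2 lines). These are 5.31-fold and 8.18-fold on the pseudocount scale. In both lines the ratio lay at the 99.9th percentile of all kept probe sets. The gene was chosen for this ratio, so nothing is read from its rank or from the shares that follow. Taken alone, line 13 had 1.49% of kept probe sets at least 2-fold above the control and line 22 had 7.38%. When kept probe sets were split into 5 classes by intensity, 0.867% of the class of AT1G05310 met the rule of size for higher. In RNA from whole leaves, more cells with a transcript and more transcript per cell cannot be told apart.

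AT3G47380, the pectin methylesterase inhibitor gene, was lower in both lines in each of its 3 probe sets. Probe set 13539_i_at read a scaled intensity of 52.6 on the line 13 array and 13.7 on the line 22 array, against 106.7 on the control array. Probe set 13900_s_at had 33.3 on the line 13 array and 9.18 on the line 22 array, against 88.6 on the control array. The third, 14631_s_at, was too dim to be kept and had 0.294 on the line 13 array and 6.19 on the line 22 array, against 22.6 on the control array. In each probe set the control was the highest array, and in line 22 all 3 values lay under the pseudocount of 18.6. The size of the line 22 ratio is thus set in part by the pseudocount. The suffix _s_at marks a probe set whose probes may match similar transcripts, and _i_at one with fewer probes than usual, so the 3 probe sets need not be independent readings of the gene.

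The kept probe sets of AT3G47380 gave nearly the same ratios. The log2 ratio was -0.82 in line 13 and -1.95 in line 22 for 13539_i_at, and -1.05 and -1.95 in the same lines for 13900_s_at. Only the second met the rule of size in both lines. Averaged over both, the gene had -0.93 in line 13 and -1.95 in line 22, a mean of -1.44 ± 0.722 (SD, n = 2 lines), and missed a 2-fold difference in line 13. It met it in both lines on the deposited values (-1.22 and -2.45), with a smaller pseudocount (-1.14 and -2.73) and where a floor replaced the pseudocount (-1.22 and -2.39). With a pseudocount at the 40th percentile the ratios were -0.63 and -1.17. A ratio below that of the gene was held by 1.59% of kept probe sets in line 13 and by 4.16% in line 22. AT3G47380 was likewise chosen for its ratios, so nothing is read from these shares or from those that follow. Taken alone, line 13 had 1.25% of kept probe sets at least 2-fold below the control and line 22 had 16.4%. In the intensity class of 13539_i_at 0.693% met the rule of size for lower, and in that of 13900_s_at 1.04% did.

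Scaling moves all ratios of an array together, and it cancels when the ratios of 2 genes are subtracted, apart from the pseudocount. The log2 ratio of AT1G05310 exceeded that of AT3G47380 by 3.34 in line 13 and by 4.98 in line 22. These genes were chosen for ratios that went opposite ways, so a positive difference was fixed by that choice. In line 22 AT3G47380 lay under the pseudocount, so the size of that difference is set in part by the pseudocount. Relative to the median ratio of all kept probe sets, AT1G05310 was at 2.40 in line 13 and 3.12 in line 22 after scaling, and at 2.42 and 3.04 on the deposited values. AT3G47380 was at -0.94 in line 13 and -1.86 in line 22 after scaling, and at -0.94 and -1.67 on the deposited values.

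**Figure D2:**
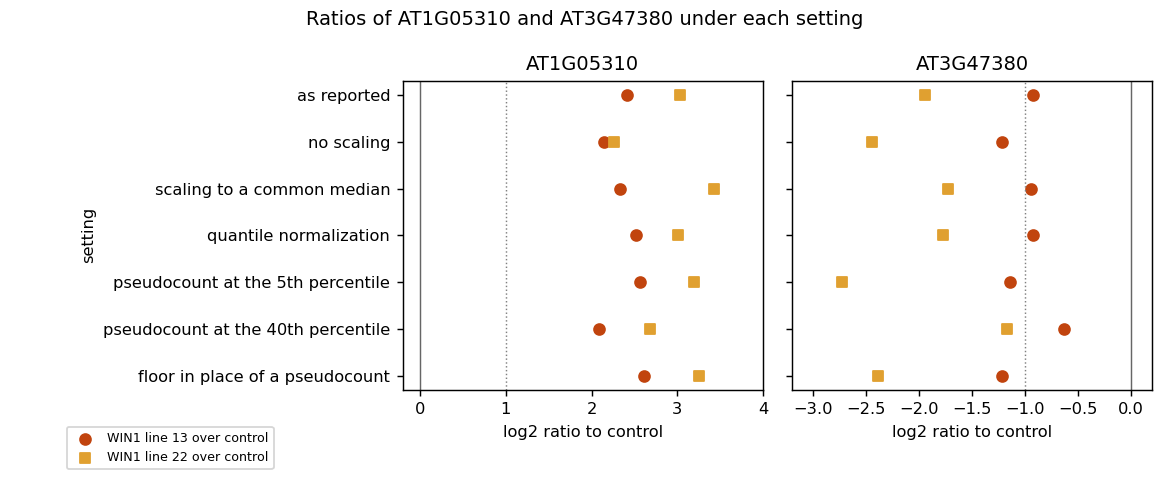
Log2 ratio to the control (x axis) of AT1G05310 on the left and AT3G47380 on the right in WIN1 line 13 (circles) and WIN1 line 22 (squares), under the reported setting and each alternative scaling, pseudocount or floor (y axis). Every point of AT1G05310 lies beyond the dotted 2-fold line. Every point of AT3G47380 is below 0, and in line 13 its ratio crosses the 2-fold line with the setting.

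The other 6 pectinesterase genes had log2 ratios from -0.13 to 0.30 in line 13, and 0 of 6 were 2-fold apart from the control. Over all kept probe sets, 1.49% were at least 2-fold higher and 1.25% lower in that line. In line 22 the ratios of the 6 ran from -0.32 to 1.23, and 1 of 6 was 2-fold apart. The array-wide shares there were 7.38% higher and 16.4% lower. On the deposited values and with a pseudocount at the 40th percentile the line 22 count was 0 of 6. Nothing about these 6 genes is read from such counts. Their median log2 ratio was 0.04 in line 13 and -0.05 in line 22, beside 0.01 and -0.09 for all kept probe sets. Their scaled intensities ran from 10.8 to 96.9, and small differences between arrays are not distinguishable at these intensities with 1 control array.

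AT2G47550 was the one that differed in line 22. Its probe set 17338_at read a scaled intensity of 11.4 on the line 13 array and 50.3 on the line 22 array, against 10.8 on the control array. Line 22 alone was above the pseudocount, and line 13 and the control were nearly level. The probe set passed the intensity filter only through line 22: the mean log2 intensity of the other arrays was 4.89, under the filter value of 5.13. Its ratio in line 22 was 0.77 on the deposited values and 0.66 with a pseudocount at the 40th percentile. The log2 ratio was 0.03 in line 13 and 1.23 in line 22, a mean of 0.63 ± 0.846 (SD, n = 2 lines), smaller than the spread between the lines. That line by itself had 7.38% of kept probe sets 2-fold or more above the control.

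ATPMEPCRB (AT4G02330), also known as PME41, had a pair of probe sets, and these went apart. Probe set 14612_at had 28.8 on the line 13 array and 30.3 on the line 22 array, against 14.9 on the control array, giving log2 ratios of 0.50 and 0.55. Probe set 19267_s_at had 82.2 on the line 13 array and 45.2 on the line 22 array, against 76.1 on the control array, giving log2 ratios of 0.09 and -0.57. In the first the control was the lowest array, and in the second it lay between the lines. The mean over both was 0.14 ± 0.218 (SD, n = 2 lines).

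ATPMEPCRD (AT2G43050) read scaled intensities of 96.9 on the line 13 array and 74.1 on the line 22 array, against 76.3 on the control array, and its mean log2 ratio was 0.13 ± 0.224 (SD, n = 2 lines). AT3G47400 had 59.0 on the line 13 array and 41.3 on the line 22 array, against 56.1 on the control array, a mean of -0.13 ± 0.264. In both genes the control lay between the lines. These orders depend on the scaling: on the deposited values both lines were below the control for AT3G47400 and for 19267_s_at, and after scaling to a common median both were above it for ATPMEPCRD. AT3G47400 lies close to the inhibitor gene AT3G47380 in the RefSeq annotation of assembly TAIR10.1, with 2 annotated genes between them. The inhibitor was below the control in both lines, whereas the log2 ratio of AT3G47400 was 0.05 in line 13 and -0.32 in line 22.

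AT2G36710 had 17.3 on the line 13 array and 14.5 on the line 22 array, against 18.8 on the control array, and its mean log2 ratio was -0.12 ± 0.0841 (SD, n = 2 lines). Its probe set passed the intensity filter only through the control: the mean log2 intensity of the lines was 5.11, under the filter value. AT4G03930 had 20.4 on the line 13 array and 22 on the line 22 array, against 24.1 on the control array, and a mean of -0.10 ± 0.0398. These arrays all lay close to the pseudocount of 18.6, which pulls such ratios towards 0. The small SDs therefore do not show that these genes were unaltered.

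**Figure D3:**
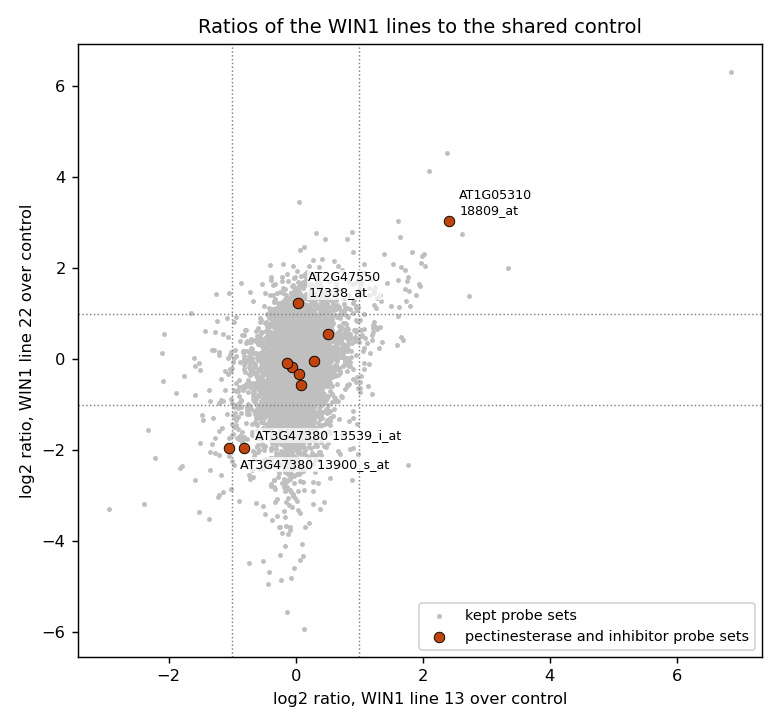
Log2 ratio of WIN1 line 13 to the control (x axis) against that of WIN1 line 22 to the same control (y axis) for 5773 kept probe sets (grey), with the 10 kept probe sets of the pectinesterase and inhibitor genes in red and dotted lines at 2-fold. AT1G05310 lies far to the upper right, 17338_at of AT2G47550 is displaced along the line 22 axis only, and the pair for AT3G47380 lies to the lower left. Both axes share the control array.

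The lines were set against each other as well, with 1 array a line and so no replicate check. Of the 8 genes, 2 were at least 2-fold apart between the lines: AT2G47550, at -1.20 on the log2 scale for line 13 over line 22, and AT3G47380, at 1.02. Such a gap was found for 21.9% of all kept probe sets. AT1G05310 had -0.62, and this gap was -0.12 on the deposited values and -1.09 after scaling to a common median. The order of the lines for AT1G05310 was the same in these settings, but its size rests on the scaling.

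Genes were then ranked by how close their pair of log2 ratios lay to that of AT1G05310 or AT3G47380, among 2477 other genes with a kept probe set. Closest to AT1G05310 was GPDHC1, a cytosolic glycerol-3-phosphate dehydrogenase, at a distance of 0.360. GPDHC1 read scaled intensities of 562.5 on the line 13 array and 612.4 on the line 22 array, against 75.6 on the control array. AT4G24130, AT2G42990, AT4G15140 and AT2G39980 followed at distances of 0.842 to 1.25, and of these only AT2G39980 had a control value above the pseudocount, 64.7. Closest to AT3G47380 was AT2G28870 at 0.194, with 25.2 on the line 13 array and 5.40 on the line 22 array, against 62.8 on the control array. AT2G37130, AT2G01460, AT2G42300 and AT4G29650 followed at 0.202 to 0.265. In line 22 the values of AT2G28870, AT2G01460, AT2G42300 and AT4G29650 lay under the pseudocount or below 0. AT2G37130 was measured above it on each array, with 249.5 on the line 13 array and 125.7 on the line 22 array, against 470.2 on the control array. The distances are between pairs of ratios that share 1 control array.

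Other genes that build, modify or degrade pectin came from lists of 138 genes, of which 17 were matched to a probe set and 6 were kept. Of the 55 other pectinesterases, 9 were matched and all 9 were too dim to be kept, with no scaled intensity above 23.9 on any array. Among these were VGD1, a pectinesterase needed for pollen tube growth, and its homologue VGDH1. VGD1 had -0.324 on the line 13 array and 5.14 on the line 22 array, against 0.536 on the control array. Since the 7 members were all kept and these 9 were not, the filter and the list coincide, and nothing is read from that. None of 32 genes of pectin synthesis and none of 6 pectin-sensing receptors and polygalacturonase inhibitors was matched.

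The 3 other inhibitor genes that were matched were all kept, and none met the rule of size. Over all kept probe sets the rule was met by only 0.866% for higher and 0.554% for lower, so nothing is read from that count. AT5G62350 had 1734 on the line 13 array and 2496 on the line 22 array, against 1532 on the control array, giving log2 ratios of 0.18 and 0.70. AT4G25260 had 100.8 on the line 13 array and 78.3 on the line 22 array, against 128.4 on the control array, giving log2 ratios of -0.30 and -0.60. AT2G01610 had 48.3 on the line 13 array and a value below 0 on the line 22 array, against 57.3 on the control array. Its log2 ratios were -0.18 and -2.03, the second set in part by the pseudocount. After scaling, AT5G62350 was above the control in both lines and the other inhibitors, AT3G47380 included, were below it in both. On the deposited values AT5G62350 was below the control as well, with log2 ratios of -0.14 and -0.13. These still lay above the medians of all kept probe sets on those values, -0.27 in line 13 and -0.78 in line 22.

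Of the pectin-degrading genes, 3 pectate lyase-like genes were kept. The gene AT4G24780 was below the control in both lines in both of its probe sets. In 12312_at it had 287.8 on the line 13 array and 158.7 on the line 22 array, against 413.7 on the control array. In 12313_g_at it had 953.5 and 130.4 in lines 13 and 22, against 1373 in the control, and the log2 ratio in line 22 was -3.22, against -1.29 in 12312_at. AT1G04680 had 118.1 on the line 13 array and 44.4 on the line 22 array, against 115.5 on the control array. AT4G13710 was above the control in both lines and both probe sets, with log2 ratios from 0.08 to 0.95. On the deposited values its line 22 ratios were -0.06 and -0.60, beside a line 22 median of -0.78 for all kept probe sets. The polygalacturonase gene ADPG1 and the pectate lyase gene AT59 were below 0 on all arrays.

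The limma fit over all 5773 kept probe sets called 0 of the 8 kept probe sets of these other pectin genes (adjusted p = 0.9999 for the lowest), beside 2 probe sets or 0.0346% over the whole array. With no adjustment and a threshold of 0.05, limma gave 1 of the 8, 12313_g_at of AT4G24780, beside 2.23% of all kept probe sets. The median log2 ratio over the 6 kept genes was -0.08 in line 13 and -0.85 in line 22, against 0.01 and -0.09 for all kept probe sets. On the deposited values it was -0.34 and -1.52, beside -0.27 and -0.78 for all kept probe sets. Over all 17 matched genes, most of them dim, the median after scaling was 0 in both lines. The only residual degree of freedom of this fit is the difference between the lines, and the single control is taken to vary as they do. limma also draws the variance of a probe set towards that of probe sets of similar intensity. For 12313_g_at its standard error was 0.772, although the log2 ratios of the lines were -0.52 and -3.22. The p-values therefore do not measure the gap between the lines of a given probe set in full. A missed threshold here does not show that these genes were unaltered.

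**Figure D4:**
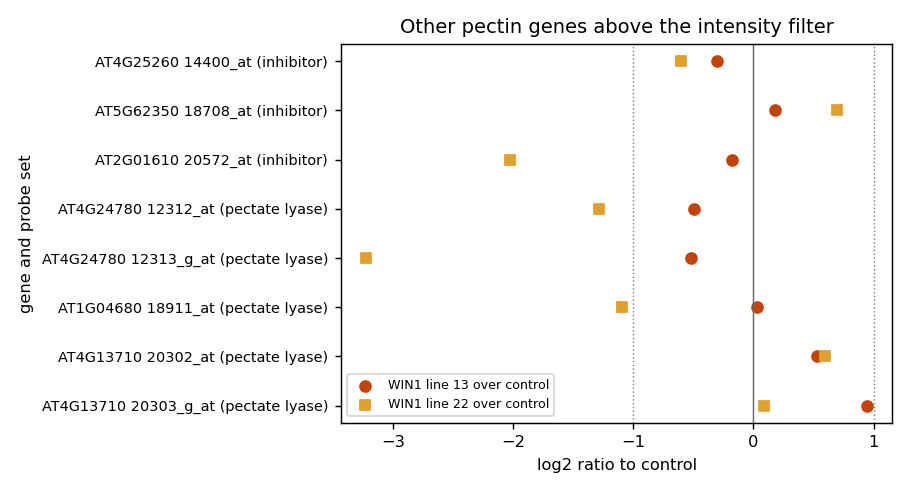
Log2 ratio to the control (x axis) of the 8 kept probe sets of other pectin genes (y axis) in WIN1 line 13 (circles) and WIN1 line 22 (squares), with 1 array per line and dotted lines at 2-fold. In line 22, 4 of the 8 lie at least 2-fold below the control, beside 16.4% of all kept probe sets. These 4 include both probe sets of AT4G24780 and that of AT2G01610, whose line 22 value was below 0. The count is 5 on the deposited values, 2 after scaling to a common median and 3 after quantile normalization. The line 22 median of all kept probe sets moved as well in these settings, to -0.78, 0.26 and 0.06. Nothing about the pectin genes is read from the change in this count. No point of line 13 is beyond 2-fold, beside 1.49% of all kept probe sets higher and 1.25% lower.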

How the data were processed

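The authors deposited linear intensities for 8247 probe sets on 3 arrays. How probes were summarised is not given in the sources used here. Arrays shared a chip lot and a scan day, per the file headers, so neither could be tested as a batch.

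Each array was scaled to a common trimmed mean of 176.6 (2% cut at each end). Negative values became 0, and log2 was taken after adding 18.6, the 20th percentile of positive values, as pseudocount. Probe sets above the 30th percentile of mean log2 were kept, and the kept probe sets of a gene were averaged. limma 3.58.1 in R 4.3.3 (lmFit, eBayes with trend, two-sided, Benjamini-Hochberg over 5773) compared the WIN1 lines with the control. It was tested on simulated data.

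Probe sets were named through GEO's platform annotation and RefSeq gene IDs of assembly TAIR10.1: 3794 had 1 gene, 70 several and 4383 none, and 3784 matched a locus. The members and lists were chosen with earlier results of these data known. The named genes were all members, every matched gene of the pectin lists, and the 5 genes nearest in ratio to AT1G05310 and to AT3G47380. The files name no genome build, so no coordinates are given, and no sequence tables were used. The number of arrays limits the precision.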

Additional observations from a re-analysis of the deposited data

How the results depend on the processing

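No alternative was added later. No paired analysis was possible because there is 1 control array. AT1G05310 stayed at least 2-fold higher in both lines under every scaling, pseudocount, floor, filter and fold threshold tried, and its mean log2 ratio of 2.72 was 2.21 on the deposited values. AT3G47380 stayed below the control in both lines under every scaling, pseudocount and floor. Counted by gene, members that met the rule of size for lower went from 0 to 1 on the deposited values. The same count was reached for the 5th-percentile pseudocount, with a floor and at 1.5-fold. Each time this was AT3G47380. Over all kept probe sets the count for lower rose too, from 32 to 107, 62, 80 and 143 in these settings, so nothing is read from the change. With 1 line left out, the members called higher numbered 1 to 2 and those called lower 0 to 1. The second higher gene was AT2G47550, called in line 22 alone. The shares of all kept probe sets were 1.49% higher and 1.25% lower in line 13, and 7.38% and 16.4% in line 22. Members 2-fold apart between the lines numbered 2, but 1 on the deposited values and after quantile normalization, and 0 for the 40th-percentile pseudocount. The median of the other pectin genes over both lines was -0.49, against -0.97 on the deposited values and 0 without the filter. All kept probe sets shifted as well on the deposited values, with medians of -0.27 (line 13) and -0.78 (line 22). The 2 probe sets past limma's adjusted p were 1 after scaling to a common median, for the 5th-percentile pseudocount, without trend and for robust eBayes, 4 for the 40th-percentile pseudocount, and 0 after quantile normalization, with a floor and without the filter, where limma gave 61, 43 and 307 at an unadjusted p under 0.05. A larger pseudocount shrinks ratios by construction. Other causes were not tested.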
